A study of Bos taurus with 10 samples.

Results

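The glutathione peroxidases are a family of 8 genes, GPX1 to GPX8, and each of the 8 was represented by a single probeset among the 18010 genes that had a probeset of their own. They were chosen by gene name, and they are considered as 5 genes whose proteins carry selenocysteine at the active site (GPX1, GPX2, GPX3, GPX4 and GPX6) and 3 whose proteins carry cysteine there (GPX5, GPX7 and GPX8). Messenger RNA was measured in bovine (Bos taurus) corpora lutea of cycle day 7, with 5 samples from cows given the agent labelled ISe and 5 from cows given the agent labelled MIX, 1 whole-transcript array per sample. The title states that the agents were different forms of selenium, so both groups received selenium. The labels give neither the doses nor the age or breed of the cows. They also leave unsaid whether a cow gave more than 1 sample, so a p-value here reflects the spread between samples, which may be technical. The study asked how the form of selenium is related to luteal gene expression, and the only comparison it allows here is MIX against ISe.

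Glutathione peroxidases reduce hydrogen peroxide and organic hydroperoxides to water and alcohols, and most use glutathione as the electron donor. In the selenoprotein members the reaction takes place at selenocysteine, a residue inserted at a UGA codon with the help of a hairpin in the 3′ end of the messenger RNA. When selenium is short, the messenger RNA of some selenoproteins is degraded while that of others is spared, and in rodents GPX1 is a well-known example of the first kind and GPX4 of the second. The members with cysteine do not need selenium to be made. The corpus luteum makes progesterone in mitochondria, where electrons that leak from the side-chain cleavage system can form reactive oxygen species. The assignment to the selenocysteine class is textbook knowledge, and for GPX6 it comes from human, since mouse and rat GPX6 carry cysteine.

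The deposited values are log2 signals, and a difference of 1 is a doubling of signal. Signals of different probesets depend on their probes, so levels are compared between samples for each gene and never between genes. The median of the mean signals of the 19145 tested probesets was 6.40. GPX1, GPX3, GPX4, GPX7 and GPX8 lay above it, and GPX2, GPX5 and GPX6 lay below it, where a difference in signal bounds a difference in transcript less firmly. All 6 luteal cell markers that were measured, among them CYP11A1 and HSD3B1 of progesterone synthesis, lay above it too. The array of MIX 8 was set off along the first principal component, at 32.8 against -9.5 to 1.3 on the other arrays, and MIX 1 on the second, at -26.6 against -6.1 to 11.8. MIX 8 also had the narrowest distribution, with an SD over all probesets of 2.18. It was the highest array for 24.8% of the probesets below the median and the lowest for 21.8% of those above it, against at most 9.89% and 10.6% for any other array.

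No glutathione peroxidase gene differed between MIX and ISe past the adjusted threshold. By limma, 0 of the 8 were called at an adjusted p under 0.05, beside 0 of all 19145 probesets (0%). At an unadjusted p under 0.05, 1 of the 8 was found, GPX7, which was lower in MIX, beside 918 of all probesets (4.79%), of which 406 (2.12%) were lower in MIX. The values of the groups overlapped for all 8 genes, as they did for all but 0.642% of probesets. Of the 8 genes, 5 had a higher mean in MIX and 3 a lower one, and 50.4% of all probesets had a higher mean in MIX. For GPX3 and GPX4 the 95% interval of the fold change lay inside 0.8-fold to 1.25-fold, for GPX1 it reached past both of these bounds, and for the other 5 past 1 of them.

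**Figure D1:**
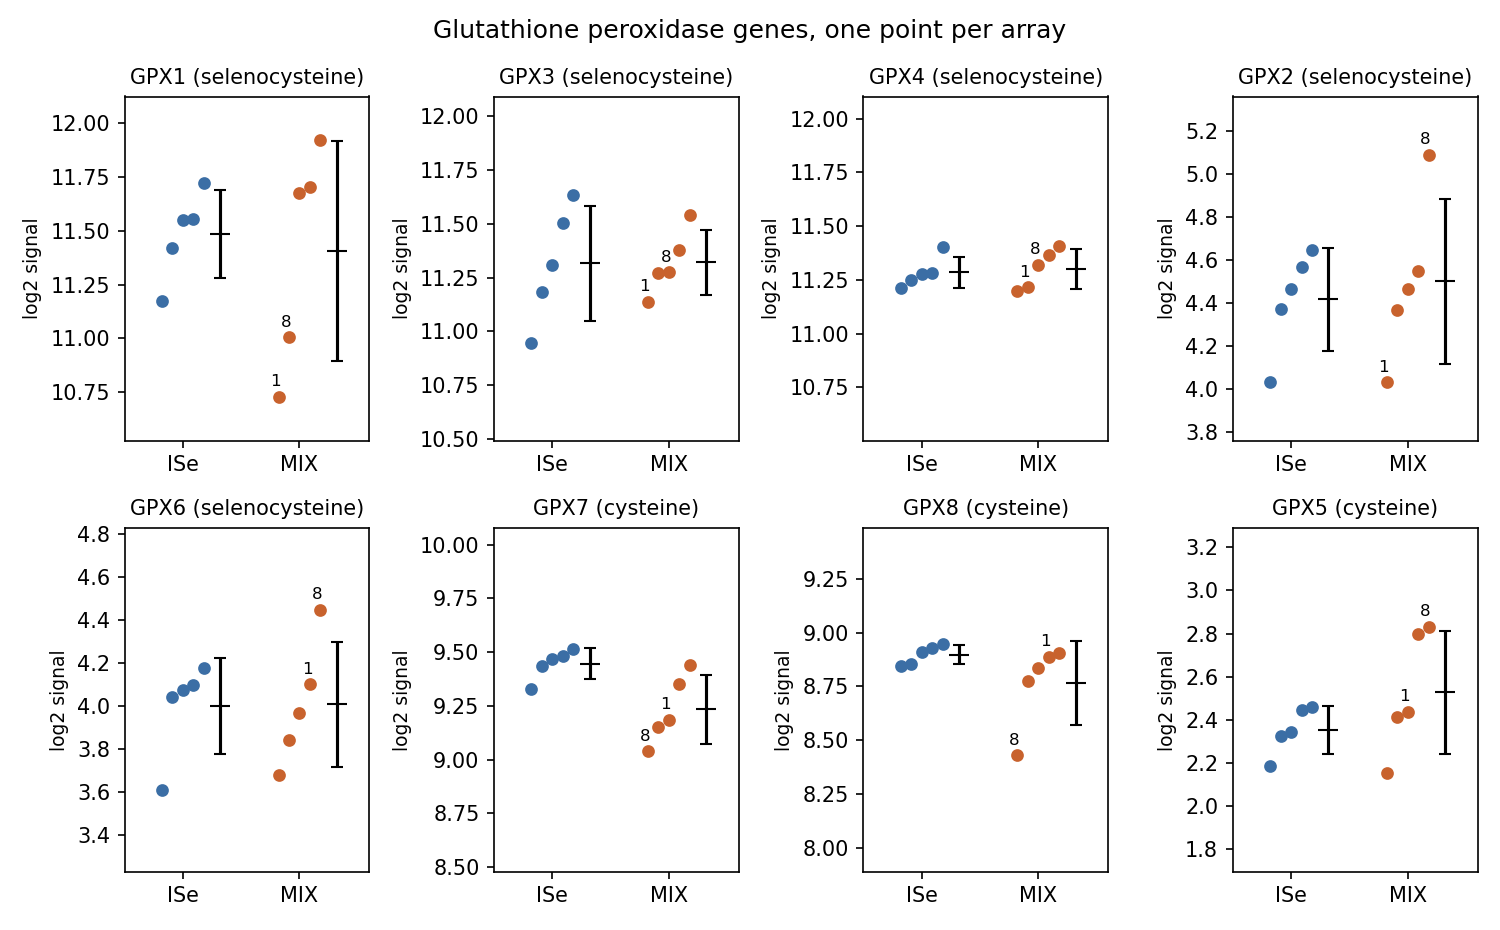
Log2 signal of the 8 glutathione peroxidase genes (vertical axes, each spanning the same range around the gene) in the 5 ISe and 5 MIX arrays, one point per array, with the mean and SD of each group beside the points and MIX 1 and MIX 8 marked by number. GPX1 in MIX 1 and MIX 8 lies below all ISe arrays, GPX4 varies least, and GPX7 has 3 MIX arrays below the lowest ISe array.

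GPX1, the cytosolic and mitochondrial peroxidase of most tissues, was the member with the widest spread between samples. Its signal was 11.72, 11.55, 11.42, 11.18 and 11.55 in ISe 2, 3, 5, 6 and 7, and 10.73, 11.01, 11.67, 11.70 and 11.92 in MIX 1, 8, 9, 10 and 11. The MIX samples lay on both sides of the ISe samples: MIX 1 and MIX 8 were below the lowest ISe sample, MIX 11 was above the highest, and MIX 9 and MIX 10 were within the ISe range. The mean was 11.41 ± 0.51 over the MIX samples and 11.48 ± 0.20 over the ISe samples (SD, n = 5 each), for a log2 difference of -0.08 ± 0.21 (SE; limma adjusted p = 0.984), with a 95% interval of the fold change from 0.68 to 1.32. The highest and lowest of the 10 samples differed 2.29-fold. The SD over the 10 arrays, 0.37, was larger than that of 94.9% of the tested probesets. The 2 low samples are also the arrays that stood apart on the principal components, and without both the difference was 0.28 with an unadjusted limma p of 0.0463 and an adjusted p of 0.944. Leaving out the 2 lowest values could only raise the MIX mean, so this p is not support for a difference. In that setting 959 of all 19145 probesets had an unadjusted p under 0.05. All 7 measured erythrocyte markers, of a cell type rich in GPX1, lay below the median of all probesets. Their mean deviation was -0.08 in MIX 1 and 0.08 in MIX 8. Of the 7, 4 had a higher mean in MIX and 3 a lower one. Among them EPB42 was at 0.20 ± 0.14 and HBA at -0.19 ± 0.083 (log2 difference ± SE). At signals this low such values bound the erythrocyte content less firmly, and its part in the GPX1 values was not tested.

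GPX4 reduces hydroperoxides within membrane lipids and is the enzyme that holds back ferroptosis, a form of cell death driven by lipid peroxidation. It was the steadiest member, with signals of 11.21, 11.41, 11.28, 11.28 and 11.25 in ISe 2, 3, 5, 6 and 7 and of 11.22, 11.32, 11.41, 11.20 and 11.36 in MIX 1, 8, 9, 10 and 11. The groups covered nearly the same range, and the whole span over the 10 samples was 1.16-fold. Its SD of 0.078 was larger than that of only 11.1% of tested probesets. The log2 difference was 0.015 ± 0.063 (SE; limma adjusted p = 0.991), with a 95% interval of the fold change from 0.92 to 1.11, the narrowest of the 8. MIX 1 and MIX 8, the samples lowest in GPX1, lay at 0.08 below and 0.03 above the GPX4 mean.

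GPX3, the secreted peroxidase found in plasma and extracellular fluid, varied more within ISe than within MIX. Its signal was 11.18, 11.31, 11.64, 10.95 and 11.50 in ISe 2, 3, 5, 6 and 7, and 11.14, 11.27, 11.54, 11.27 and 11.38 in MIX 1, 8, 9, 10 and 11. Both the highest sample, ISe 5, and the lowest, ISe 6, belonged to ISe, and all 5 MIX samples lay between them. The means were 11.32 ± 0.15 for MIX and 11.32 ± 0.27 for ISe (SD, n = 5 each), with a log2 difference of 0.0044 ± 0.13 (SE; limma adjusted p = 0.999) and a 95% interval of the fold change from 0.83 to 1.22.

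GPX7 and GPX8 are resident in the endoplasmic reticulum, where they use hydrogen peroxide from oxidative protein folding and pass the oxidation on to protein disulfide isomerases. GPX7 gave 9.44, 9.48, 9.47, 9.33 and 9.52 in ISe 2, 3, 5, 6 and 7, and 9.19, 9.04, 9.44, 9.35 and 9.15 in MIX 1, 8, 9, 10 and 11. All 5 MIX samples lay below the ISe mean and 3 of them, MIX 1, MIX 8 and MIX 11, below the lowest ISe sample. The mean was 9.23 ± 0.16 for MIX and 9.45 ± 0.07 for ISe (SD, n = 5 each), which is 0.86-fold (95% interval 0.76 to 0.97). The log2 difference of -0.21 ± 0.080 (SE) had an unadjusted limma p of 0.0223 and an adjusted p of 0.941, so it did not pass the threshold. The exact two-sided permutation test of this single gene gave p = 0.0397 before any adjustment, where 5 against 5 samples allow 0.00794 at the smallest. Without MIX 1 and MIX 8 the difference was -0.13 with an unadjusted limma p of 0.13.

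GPX8, which is anchored in the membrane of the endoplasmic reticulum, gave 8.85, 8.86, 8.93, 8.91 and 8.95 in ISe 2, 3, 5, 6 and 7, and 8.89, 8.43, 8.77, 8.84 and 8.91 in MIX 1, 8, 9, 10 and 11. The ISe samples lay close together, 4 of the 5 MIX samples were below the ISe mean, and MIX 8 was far below the rest. The log2 difference was -0.13 ± 0.088 (SE; limma adjusted p = 0.941; exact permutation p = 0.111 before adjustment), with a 95% interval of the fold change from 0.80 to 1.04. Without MIX 8 it was -0.047, with an unadjusted p of 0.403. Of the 8 other genes of oxidative folding that were measured, 6 had a lower mean in MIX, with a median of -0.036 log2. At an unadjusted p under 0.05 there were 0, beside 4.79% of all probesets. The mean deviation of these 8 genes was lowest in MIX 8, at -0.095. It was 0.056, 0.061, -0.019 and -0.059 in MIX 1, 9, 10 and 11, and -0.047 to 0.080 in ISe. PRDX4, the peroxiredoxin of the same compartment, was at -0.11 ± 0.079, PDIA3, a disulfide isomerase, at -0.078 ± 0.060 and ERO1A, an oxidase that makes hydrogen peroxide, at 0.13 ± 0.085 (log2 difference ± SE). The tissue was measured in bulk, so fewer cells of a type and less RNA per cell cannot be told apart. Among markers of other cell types, 5 of 6 fibroblast genes had a lower mean in MIX (median -0.10 log2, mean deviations of -0.23 to 0.26 in MIX and -0.25 to 0.19 in ISe), and their part in the GPX7 and GPX8 values was not tested.

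GPX2, GPX6 and GPX5 are known from narrower sites, the gut epithelium for GPX2, the olfactory epithelium for GPX6 and the epididymis for GPX5, and all 3 had signals below the median here. GPX2 ranged from 4.03 to 4.64 in ISe (median 4.46) and from 4.03 to 5.09 in MIX (median 4.46), with a log2 difference of 0.084 ± 0.18 (SE). GPX6 ranged from 3.61 to 4.18 in ISe (median 4.07) and from 3.68 to 4.45 in MIX (median 3.97), with a difference of 0.0083 ± 0.15. GPX5 ranged from 2.18 to 2.46 in ISe (median 2.34) and from 2.15 to 2.83 in MIX (median 2.44), with a difference of 0.18 ± 0.13. The limma adjusted p-values were 0.977, 0.999 and 0.941. MIX 8 was the highest sample for all 3 genes, at 0.63, 0.44 and 0.39 log2 above their means, while it was the lowest sample for GPX7 and GPX8. Quantile normalisation gives every array the same distribution but keeps the order of probesets within it. After it, the deviations of MIX 8 were 0.57, 0.38 and 0.39 for the 3 genes, and -0.27 and -0.36 for GPX7 and GPX8. MIX 8 was also the highest array for 24.8% of all probesets below the median and the lowest for 21.8% of those above it. The part of this array-wide pattern in the values of these genes was not tested.

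**Figure D2:**
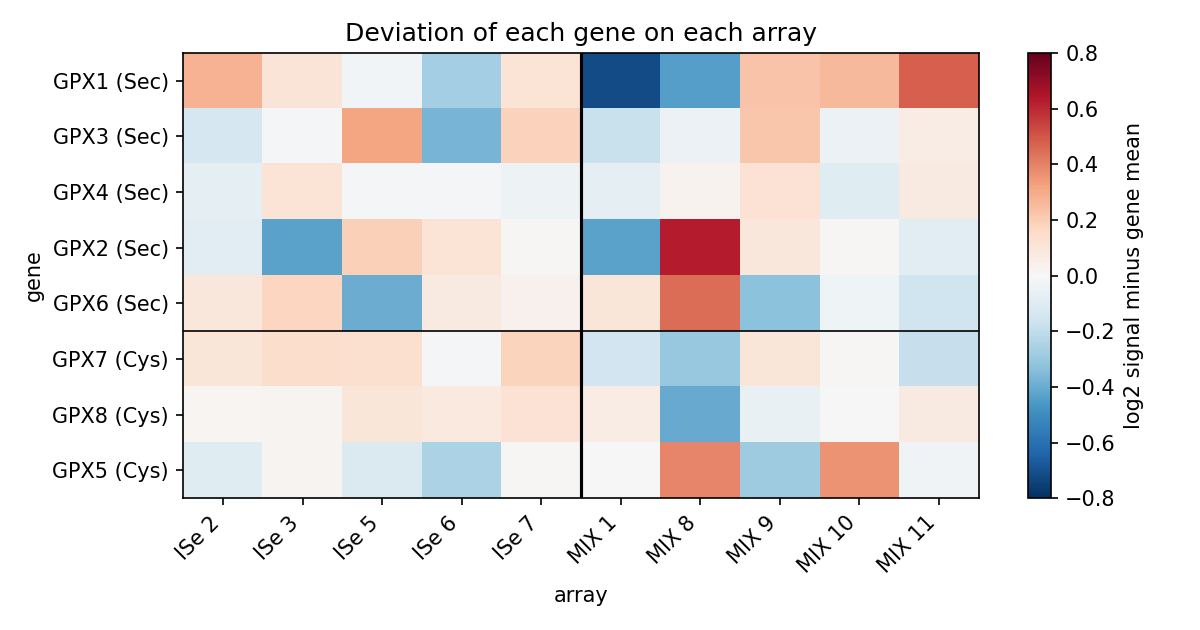
Deviation of each of the 8 genes (rows) from its own mean over the 10 arrays, in log2 units shown by colour, for the ISe arrays on the left and the MIX arrays on the right; selenocysteine members stand above the line and cysteine members below it. MIX 8 is high for GPX2, GPX6 and GPX5 and low for GPX1, GPX7 and GPX8, and MIX 1 is low for GPX1 and GPX2.

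The selenocysteine and cysteine members were then set side by side, as a description without a test. The 5 selenocysteine genes had log2 differences from -0.08 (GPX1) to 0.084 (GPX2), with a median of 0.0083, and 4 of the 5 were higher in MIX. The 3 cysteine genes had differences of -0.21 (GPX7), -0.13 (GPX8) and 0.18 (GPX5), with a median of -0.13, and 1 of the 3 was higher in MIX. The median over all tested probesets was 0.0011. The largest differences in both directions lay among the cysteine genes, and the probeset behind the upward one, GPX5, was below the median signal.

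For each sample, the mean deviation of the cysteine genes was subtracted from that of the selenocysteine genes. The result was 0.0097, -0.072, -0.023, -0.033 and -0.040 in ISe 2, 3, 5, 6 and 7, and -0.23, 0.23, 0.15, -0.11 and 0.12 in MIX 1, 8, 9, 10 and 11. The ISe samples stayed close to 0 and the MIX samples lay on both sides of them. The mean was 0.032 ± 0.19 for MIX and -0.032 ± 0.029 for ISe (SD, n = 5 each), a difference of 0.063 log2. Deviations were taken from each gene's mean over all samples, so the means of equal groups are opposite by construction and only their difference carries information. The small ISe spread depended on the class given to GPX6. With GPX6 counted as a cysteine gene the ISe SD was 0.13, and with it left out 0.074. With only the 3 selenocysteine and 2 cysteine genes above the median of all probesets, the genes that also remain under both filters on dim probesets, the difference was 0.15. In that setting the ISe values were no longer close together, at -0.25 in ISe 6 and between -0.062 and -0.014 in the others, and MIX 1 was at -0.28 against 0.031 to 0.26 in the other MIX samples.

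**Figure D3:**
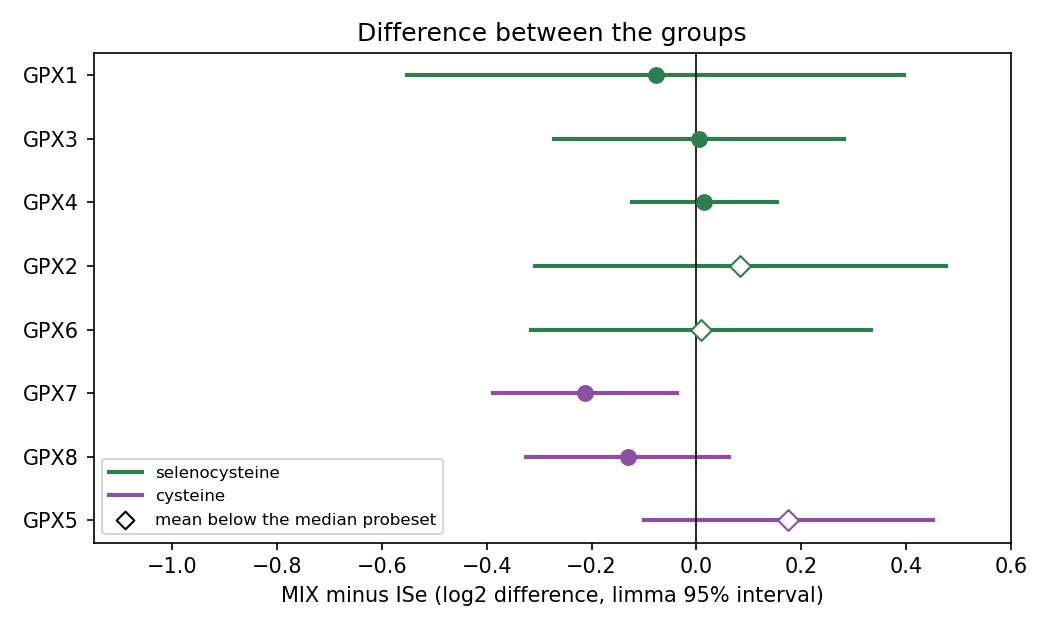
MIX minus ISe for each gene as a log2 difference with its limma 95% interval (horizontal axis), with selenocysteine members in green, cysteine members in purple and open symbols for the 3 genes whose mean lay below the median probeset. The intervals of 7 genes include 0, and that of GPX7 runs from -0.39 to -0.037 before any adjustment for the number of probesets.

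Members did not vary together between samples in a way that passed adjustment. Over all 28 pairs of the 8 genes, 0 had an adjusted permutation p under 0.05 and 0 an unadjusted one. The pair with the smallest p was GPX3 and GPX6 (Pearson r = -0.61, permutation p = 0.06, adjusted p = 0.514; Spearman rho = -0.61, permutation p = 0.0673, n = 10), and r was -0.56 without ISe 5 and ISe 6, the samples farthest from the median of GPX3. GPX7 and GPX8 had r = 0.59 (permutation p = 0.0625, adjusted p = 0.514) and rho = 0.39 (permutation p = 0.262, n = 10), and r was 0.045 without MIX 8 and MIX 11, the samples farthest from the median of GPX7. It was -0.055 without MIX 1 and MIX 8, with MIX 11 kept, so the relation did not hold without MIX 8 in either case.

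GPX1 was also compared with 5 other selenoprotein genes, listed because their messenger RNA is known to fall in selenium-deficient rodents, in a family of 5 relations added after the data were examined. SELENOH is a nuclear selenoprotein whose signal lay below the median of all probesets (means of 5.82 in MIX and 5.81 in ISe). It gave r = 0.73 (permutation p = 0.0165, adjusted p = 0.0827) and rho = 0.67 (permutation p = 0.037, adjusted p = 0.156, n = 10), with r = 0.50 without MIX 1 and MIX 8. For SELENOW, an abundant small selenoprotein of muscle, r was 0.43 (permutation p = 0.221, adjusted p = 0.330) and rho 0.38 (permutation p = 0.281), and without the same 2 samples r was 0.026. MSRB1, a methionine sulfoxide reductase, gave r = -0.051 and rho = -0.030 (permutation p = 0.886 and 0.945), with r = 0.16 without them. SELENOK and SELENOT, both of the endoplasmic reticulum, gave r = -0.58 and -0.39 (permutation p = 0.0771 and 0.264) and rho = -0.48 and -0.62 (permutation p = 0.166 and 0.0626), and without MIX 1 and MIX 8 their r was -0.34 and -0.62. The mean deviation of these 5 genes was 0.0091 in MIX 1 and -0.019 in MIX 8, the samples in which GPX1 was 0.72 and 0.44 log2 below its mean. These means join opposite moves. In MIX 1, SELENOW (9.47) and SELENOH (5.70) were at their lowest of the 10 samples and SELENOK (7.52) at its highest. In MIX 8, SELENOH (5.71) lay below both of its group means and MSRB1 (7.18) above both of its own.

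Over all 18010 genes and the 10 arrays, the genes closest to GPX1 in pattern were COX8A (r = 0.96) and NDUFA7 (r = 0.95), both of the respiratory chain, and SLC38A1 (r = 0.94), an amino acid transporter. For GPX7 they were LCMT2 (r = 0.97), STXBP2 (r = 0.95) and BRCA1 (r = 0.95), for GPX8 ZNF569, CDK7 and CCDC174 (r of 0.96, 0.95 and 0.95), for GPX4 FGD2, HCAR2 and DPP3 (0.93, 0.90 and 0.89) and for GPX3 SLC35E3, UXS1 and ZNF70 (0.88, 0.87 and 0.87). These are descriptions, since with 10 arrays the median gene had a closest partner at r = 0.94. The closest partner of GPX3 was a weaker match than that of all but 0.622% of genes. For GPX7, GPX1, GPX8 and GPX4 the best r was above that of 94.4%, 84.4%, 71.9% and 25.4% of genes. None of these r values was computed again without MIX 1 and MIX 8. Mean signals of LCMT2 (5.37), FGD2 (5.54), HCAR2 (5.26) and ZNF70 (5.87) lay below the median of all probesets.

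Genes around the glutathione peroxidases were read from the same fit, and 0 of them passed the adjusted threshold, beside 0% of all probesets. Of 23 genes of glutathione supply and recycling, 11 were higher and 12 lower in MIX, with a median of -0.00062 log2. An unadjusted p under 0.05 was found for 1 of the 23, beside 4.79% of all probesets. That gene was OPLAH, which opens 5-oxoproline to glutamate, at 0.31 ± 0.12 (log2 difference ± SE; limma adjusted p = 0.941). ME1, a source of NADPH, was at 0.17 ± 0.10 and GGT5, which cleaves glutathione conjugates, at 0.12 ± 0.079. Signals of OPLAH (means of 5.69 in MIX and 5.37 in ISe) and GGT5 (5.96 and 5.84) lay below the median of all probesets. Among 18 genes that remove hydroperoxides or superoxide by other routes, 11 were higher and 7 lower, with a median of 0.010. MGST2, a membrane-bound glutathione transferase, at -0.20 ± 0.088, was the 1 of 18 with an unadjusted p under 0.05, beside the same 4.79%. It was followed by GSTA1, a cytosolic transferase, at -0.16 ± 0.076 and SOD3, the extracellular superoxide dismutase, at 0.25 ± 0.12.

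Lipid peroxidation and ferroptosis genes, the setting in which GPX4 acts, had a median of 0.12 log2 over 16 genes, with 13 higher and 3 lower in MIX, beside 50.4% higher and a median of 0.0011 over all probesets. The list was not divided into genes that promote and genes that restrain ferroptosis, so its median gives no direction for that process. An unadjusted p under 0.05 was found for 3, each of them higher in MIX, beside 512 of all probesets (2.67%) in that direction. POR, the reductase that feeds electrons to cytochromes P450, was 8.81, 8.98, 8.89, 8.92 and 8.90 in ISe 2, 3, 5, 6 and 7 and 9.05, 9.08, 9.07, 9.09 and 8.99 in MIX 1, 8, 9, 10 and 11. Every MIX sample lay above every ISe sample, and the groups failed to overlap, in either direction, for 0.642% of all probesets. POR had a log2 difference of 0.15 ± 0.052 (SE; limma adjusted p = 0.941). FADS2, a fatty acid desaturase, was at 0.23 ± 0.087 and ALOX5, the lipoxygenase of leukotriene synthesis in white blood cells, at 0.29 ± 0.11 (limma adjusted p = 0.941 for each). The ALOX5 signal (means of 5.34 in MIX and 5.06 in ISe) lay below the median of all probesets. In the same samples 11 of 11 macrophage markers had a higher mean in MIX (median 0.50 log2, mean deviations of 0.059 to 0.37 in MIX and -0.48 to 0.032 in ISe), as did 6 of 6 T and NK cell markers and 10 of 10 endothelial markers (medians 0.36 and 0.16 log2), and their part in these values was not tested. GPX4 itself was at 0.015.

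A list of 13 genes around selenocysteine synthesis and insertion holds core parts of that machinery and other genes, and was not divided by role. Of the 13, 4 were higher and 9 lower in MIX, with a median of -0.023 log2. An unadjusted p under 0.05 was found for 0 of the 13, beside 4.79% of all probesets. SECISBP2, which binds the hairpin of selenoprotein messages, was at 0.11 ± 0.059, DHX36, an RNA helicase, at 0.067 ± 0.061 and SARS1, the synthetase that charges the selenocysteine tRNA with serine, at 0.041 ± 0.057 (log2 difference ± SE). The 20 selenoprotein genes outside the family had a median of 0.017, with 12 higher and 8 lower. Of these, 0 had an unadjusted p under 0.05, beside the same 4.79%. The smallest p-values were those of SELENOI, a phospholipid-synthesising enzyme, at 0.10 ± 0.054, SELENOO, a mitochondrial pseudokinase, at -0.081 ± 0.051 and MSRB1 at 0.14 ± 0.098. The other genes of the rodent deficiency list were at -0.096 ± 0.080 (SELENOW), -0.045 ± 0.052 (SELENOT), 0.011 ± 0.070 (SELENOH) and 0.0058 ± 0.10 (SELENOK).

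**Figure D4:**
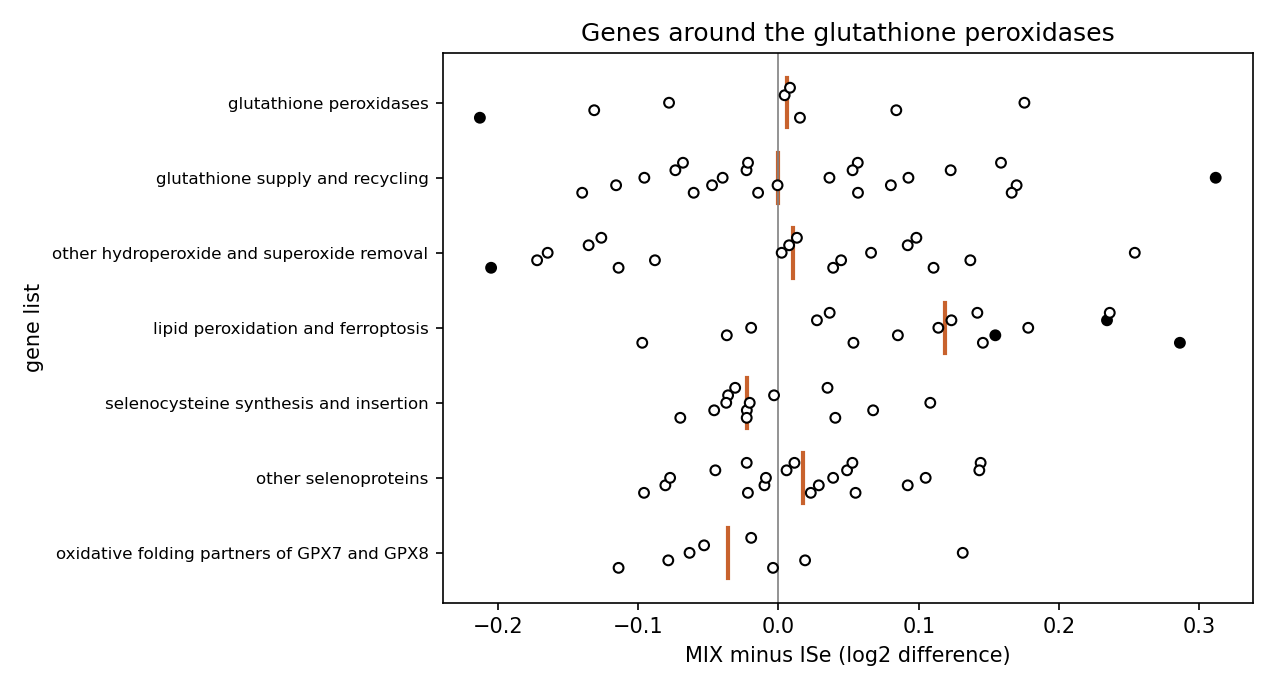
MIX minus ISe in log2 units (horizontal axis) for every measured gene of the glutathione peroxidase family and of 6 related gene lists (vertical axis), with the list median as an orange bar and filled points for an unadjusted limma p under 0.05. GPX7 is the only filled point of the family, and the median of the lipid peroxidation list, 0.12, is the farthest from 0 of the 7 medians.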

How the data were processed

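The deposited table holds log2 signals of 26773 probesets on 10 single-colour whole-transcript arrays, which the authors had processed before deposit. Per the submitters' processing notes, GCOS 1.2 and Partek were used in some role. How signals were summarised, background-corrected and normalised is not given in the sources used here. Array medians were 5.99 to 6.04, correlations between arrays 0.980 to 0.990, and 0 pairs were identical, so values were used as deposited. Precision is limited by the number of arrays. The 19145 probesets with at least 1 symbol in the platform annotation entered the test, and probesets with several symbols gave no gene name. All 8 family symbols matched the current cattle gene table.

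MIX was compared with ISe by lmFit and eBayes of limma 3.58.1 (R 4.3.3), as a two-sided test at an adjusted p of 0.05 (Benjamini-Hochberg, over every probeset tested). The fit was tested on simulated data. Correlations used 100000 permutations. Figures were drawn with matplotlib 3.10.9. The members and lists were chosen with earlier results of these data known. Named were all members, the 3 genes with the smallest p in each pathway list, the 3 closest genes by Pearson r of each member above the median, and the genes of the rodent list. No protein or promoter sequence was used here.

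Alternatives were quantile normalisation, median centring, filters on the dimmest 25% or 50%, every probeset of the table, 1 probeset per gene, averaged probesets, trended and robust or no moderation, array quality weights, and leaving out each array or MIX 1 and MIX 8 together.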

Additional observations from a re-analysis of the deposited data

Results flagged for a closer look

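A sample stood apart from the other 4 of its group by Dixon's test in 2 of the 16 groups of family values, and in 6 of 62 groups when genes named for following a member were left out, where chance gives about 1 in 20 independent groups, which genes of the same samples are not. In the family these were GPX8 in MIX 8, at 8.43 against 8.77 to 8.91 in the other MIX samples, and GPX6 in ISe 5, at 3.61 against 4.04 to 4.18 in the other ISe samples. Among the other named genes, MIX 8 was low for PDIA3 (11.65). ISe 5 was low for GGT5 (5.64), ISe 6 high for SELENOO (6.93) and MIX 10 low for SELENOT (10.05). MIX 8 was also low for CDK7 (7.26) and CCDC174 (6.91), which were picked for following GPX8, so these 2 are not separate from its own low value. The genes low in MIX 8 had signals above the median of all probesets, and MIX 8 was the lowest array for 21.8% of all such probesets.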

How the results depend on the processing

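Under all 21 alternatives 0 family genes were called, and over all probesets the count ran from 0 to 1 with an array left out, the 1 being RPL15 without MIX 8. GPX5 stayed higher and GPX7 and GPX8 lower in MIX in every setting run on them, with GPX7 between -0.26 and -0.13 log2. With 1 array left out, the unadjusted p of GPX7 ran from 0.0051 to 0.0516, GPX8 from -0.17 to -0.047 and GPX5 from 0.099 (without MIX 8) to 0.27 (without MIX 9, unadjusted p = 0.0311). The sign of the other 5 genes was not stable with 1 array left out: GPX1 ran from -0.21 to 0.092, GPX2 from -0.063 to 0.20, GPX3 from -0.087 to 0.084, GPX4 from -0.011 to 0.045 and GPX6 from -0.10 to 0.091. Array quality weights turned GPX1 to 0.069 and GPX6 to -0.049, and leaving out MIX 1 and MIX 8 turned them to 0.28 and -0.17; the cause was not tested. GPX2, GPX5 and GPX6 fell out of both dim-probeset filters. The difference between selenocysteine and cysteine members ran from 0.014 to 0.15 over 24 settings. Each moved it by less than the pooled SD of 0.137, which is mostly that of MIX (0.19). That SD describes single samples, not a difference between group means. The main difference of 0.063 is smaller than it too. The moves to 0.014 without MIX 8, 0.098 without MIX 10, 0.13 without MIX 1 and 0.15 under both dim-probeset filters exceeded the ISe SD of 0.029. Counting GPX6 as a cysteine gene gave 0.047, with an ISe SD of 0.13. The count of correlated pairs was 0 in all 13 settings. No paired analysis was possible because the groups share no replicate numbers.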
